A study of Mus musculus with 8 samples.

Results

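Bok, Iyd, Cdh24, Spock1, Nectin3 and Homer3 are markers of the pyramidal neurons of hippocampal area CA3. They were taken by name, with earlier results of these data known, so counts of them are a description and no independent test. These 6 of the 40659 gene identifiers in the count table are described here in the hippocampus of mice that overexpressed the microRNA miR-708-5p. Male C57BL/6JRj mice received a recombinant adeno-associated virus (rAAV) in the dorsal and ventral hippocampus at postnatal week 7 or 8, and by the methods the whole hippocampi were taken 4 weeks later. The labels give the age as postnatal week 12 or 13, which these times reach only in part, and the sources used here do not settle the difference. In the hp708 group (n = 4 mice) the virus carried a chimeric miR-708 hairpin placed behind EGFP under the human synapsin promoter, which is active in neurons, and in the hpCTL group (n = 4 mice) it carried a control hairpin, so every mouse had surgery and virus. The sample labels call these groups hairpin and control. All 6 genes were detected in all 8 libraries and passed the filter on low counts, as did 17252 genes in all.

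The hippocampus passes information from the dentate gyrus through the mossy fibres to CA3, and from CA3 through the Schaffer collaterals to CA1, from which it reaches the subiculum. CA3 pyramidal neurons are densely connected with each other and have been linked to the storage and completion of memories, and to sensitivity to stress. Bok encodes a BCL2-family protein bound to IP3 receptors of the endoplasmic reticulum, Iyd an enzyme that recovers iodide from iodotyrosines, Cdh24 a type II cadherin, Spock1 the proteoglycan testican-1, Nectin3 an adhesion molecule of the puncta adherentia at mossy fibre synapses, and Homer3 a postsynaptic scaffold that binds group I metabotropic glutamate receptors, Shank proteins and IP3 receptors.

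A microRNA acts mainly through its seed, bases 2 to 8, pairing with 3′ untranslated regions (3′UTRs). The mature miR-708-5p (RefSeq) is shown with its seed in capitals, together with the matches to it in the 6 genes, each searched over its longest 3′UTR in the annotation, in which the capitals mark the seed match. They are given because they are the only stretches of these 6 3′UTRs that hold the letters searched for, AGCTCCTA, AGCTCCT or GCTCCTA on the transcript strand.
mmu-miR-708-5p: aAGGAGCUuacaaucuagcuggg
Spock1, chr13:57575613-57575635, minus strand: tcttgcttcctgcctAGCTCCTt
Cdh24, chr14:54869014-54869036, minus strand: ccactctcccaattctGCTCCTA
Nectin3, chr16:46209155-46209177, minus strand: cacccctctcccttctGCTCCTA
Coordinates are on GRCm39. The Spock1 match pairs with all 7 bases of the seed and starts 1487 bases into a 3′UTR of 3201 bases. The matches in Cdh24 and Nectin3 pair with 6 seed bases and end in an A opposite the first base of the microRNA, and they lie 549 bases into a 3′UTR of 882 bases and 6297 bases into one of 7390 bases. No match was present in the 3′UTRs of Bok (607 bases), Iyd (1812 bases) and Homer3 (1261 bases). Among 14808 tested genes with an annotated 3′UTR, 3927 (26.52%) held at least 1 of these matches, so 3 of 6 genes with a match is a description of these genes and is not a test.

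The libraries held 22606824 to 28462428 counted reads. The replicates are separate mice and no pair of libraries of 1 group agreed within counting noise, so none was treated as a library deposited more than once. Mir708 had 0 counts in all 8 libraries of this polyA RNA preparation, which therefore gives no check of the overexpression. The animal behind the library labelled hp708 replicate 1 appears as a control among the qPCR samples described for the same experiment, whereas its label here is hp708. The label was kept, and the counts of genes in the comparison are also given without this library.

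The lengths of the genes set their levels apart, so levels were compared as reads per kilobase of exon after scaling to library size (RPKM). Spock1 (chr13:57569008-58056146, minus strand) was the most abundant, with a mean of 29.2 RPKM and a range of 27.0 to 32.8 over the libraries. Bok (chr1:93613193-93623498, plus strand) followed with 25.6 RPKM, from 16.8 to 35.2. These top levels overlapped, and Spock1 exceeded Bok in 5 of 8 libraries. Homer3 (chr8:70735477-70747025, plus strand) came next with 12.8 RPKM, from 9.66 to 18.9, a range that touched that of Bok although Bok was higher in each of the 8 libraries. Cdh24 (chr14:54868688-54878831, minus strand) was at 6.54 RPKM, from 5.12 to 7.38, separate from its neighbours in the order. Nectin3 (chr16:46208069-46318888, minus strand) was at 2.30 RPKM, from 2.04 to 2.58, and Iyd (chr10:3490233-3505854, plus strand) was the lowest at 1.44 RPKM, from 0.922 to 2.22. Nectin3 exceeded Iyd in 8 of 8 libraries, although their ranges overlapped. The annotation joins 18856 exon bases for Nectin3, of which a single transcript uses only part, and this lowers its RPKM.

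The comparison of hp708 with hpCTL asks whether transcripts of CA3 neurons differed after neuronal overexpression of miR-708-5p. Each of the 6 genes had a higher fitted level in hp708, by 1.08-fold (Spock1) to 1.33-fold (Iyd), but none passed the false discovery rate (FDR) of 0.05 in edgeR's quasi-likelihood test that included 3 surrogate variables (estimated patterns of unlabelled variation), against a background of 0.0058% of all genes tested. At an unadjusted p below 0.05, 5 of 6 passed, all in the direction of hp708, where 7.7% of all genes passed in either direction and 2.82% were higher. The 6 genes were chosen with earlier results of these data known, and most of them vary together over the libraries. Their count is therefore a description and is not a test. The median log2 fold change of the 6 genes was 0.24 and that of all genes tested was -0.009. In no gene did the groups separate: 0 of 6 had CPM values that did not overlap between the groups, against 1.51% of all genes. In the same test without surrogate variables the median was 0.26, but 0 of 6 reached an unadjusted p below 0.05, against 1.81% of all genes. The tissue is a mixture of cells, so more cells of a type and more RNA per cell cannot be told apart in these values.

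Bok was at 79.0, 53.1, 50.3 and 41.2 CPM (read counts scaled to library size) in hpCTL replicates 1 to 4 and at 48.3, 72.9, 70.7 and 86.1 CPM in hp708 replicates 1 to 4. The libraries fell on both sides of an empty interval between 53.1 and 70.7 CPM, with hpCTL replicate 1 among the high libraries and hp708 replicate 1 among the low ones. The means were 55.9 ± 16.2 (SD, n = 4) and 69.5 ± 15.7 CPM (SD, n = 4), and the fitted log2 fold change was 0.29 (SE 0.09, edgeR quasi-likelihood adjusted p = 0.549). The exact permutation test of the mean log2 CPM, two-sided with a smallest possible p of 0.0286, gave p = 0.314. BCL2-family proteins, the relatives of Bok, and IP3 receptors, which it binds, had 0 of 14 genes higher and 2 of 14 lower at an unadjusted p below 0.05. The median log2 fold change of the list was -0.07, and 4.87% of all genes were lower at that p. Without surrogate variables 0 of 14 passed at that p (1.81% of all genes). Without hp708 replicate 1, 1 of 14 did, also lower, where 12.2% of all genes passed in either direction. The first 2 were Bax, the pore-forming effector of apoptosis (log2 fold change -0.20, unadjusted p = 0.00598, adjusted p = 0.478 in edgeR), and Bid, which activates it (-0.23, unadjusted p = 0.0241, adjusted p = 0.594 in edgeR).

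Iyd was at 5.03, 2.41, 2.79 and 2.44 CPM in hpCTL replicates 1 to 4, and at 2.76, 5.78, 4.18 and 4.54 CPM in hp708 replicates 1 to 4. The same libraries were high and low as for Bok. This was the least counted of the genes, with 55 to 141 reads per library, and it also varied most, with a 2.40-fold ratio of the highest to the lowest library. Its mean was 3.17 ± 1.26 CPM (SD, n = 4) in hpCTL and 4.31 ± 1.25 CPM (SD, n = 4) in hp708, with a log2 fold change of 0.41 (SE 0.15, edgeR adjusted p = 0.595; exact permutation p = 0.257). Of 15 other genes of thyroid hormone handling and response, 12 passed the filter and 0 reached an unadjusted p below 0.05, with a median log2 fold change of 0.03. This count depends on single libraries. Without hpCTL replicate 1, 2 of 12 were lower at that p, against 9.67% of all genes in either direction, with a median of -0.08. Without the library labelled hp708 replicate 1, 2 of 12 were higher and 5 of 12 lower at that p, against 12.2% of all genes in either direction, with a median of -0.17. The most abundant of them per length were Ttr, which encodes the thyroxine carrier transthyretin made by the choroid plexus (689.8 RPKM, log2 fold change 0.25, unadjusted p = 0.638 in edgeR), and Thra, which encodes a thyroid hormone receptor (104.8 RPKM, log2 fold change -0.04, unadjusted p = 0.534 in edgeR). Ttr ranged from 25.6 to 1872 CPM within hpCTL alone.

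Cdh24 was at 26.2, 24.0, 22.2 and 19.3 CPM in hpCTL replicates 1 to 4 and at 23.3, 27.8, 26.7 and 27.7 CPM in hp708 replicates 1 to 4. Here hp708 replicates 2, 3 and 4 lay above every control library and hp708 replicate 1 lay below hpCTL replicates 1 and 2. The means were 22.9 ± 2.9 CPM (SD, n = 4) and 26.4 ± 2.1 CPM (SD, n = 4), with a log2 fold change of 0.19 (SE 0.08, edgeR adjusted p = 0.632; exact permutation p = 0.114). Among 17 type II cadherins, their relative Cdh5 and the catenins that anchor them to actin, 1 was higher and 1 was lower at an unadjusted p below 0.05, where 2.82% of all genes were higher and 4.87% lower, and the median was -0.01. These counts were 1 and 3 of 17 without hp708 replicate 1, where 12.2% of all genes passed in either direction. The higher was Cdh12 (log2 fold change 0.38, unadjusted p = 0.0195, adjusted p = 0.567 in edgeR) and the lower Cdh22 (-0.39, unadjusted p = 0.0202, adjusted p = 0.573 in edgeR). Cdh12 was lowest in hpCTL replicate 1, at 4.36 CPM, whereas Cdh24 in that library was the highest of the controls.

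Nectin3 was at 46.4, 41.3, 39.7 and 38.5 CPM in hpCTL replicates 1 to 4 and at 42.5, 44.0, 48.5 and 45.6 CPM in hp708 replicates 1 to 4. All 4 hp708 libraries lay above hpCTL replicates 2, 3 and 4, and hpCTL replicate 1 lay above 3 of them. The means were 41.5 ± 3.5 CPM (SD, n = 4) and 45.2 ± 2.6 CPM (SD, n = 4), a log2 fold change of 0.14 (SE 0.05, edgeR adjusted p = 0.594; exact permutation p = 0.143). In the adhesion partners of Nectin3, the other nectins, afadin and the CADM proteins, 0 of 9 reached an unadjusted p below 0.05 and the median was -0.05. Without hp708 replicate 1, 1 of 9 was higher and 1 of 9 lower at that p, against 12.2% of all genes in either direction. The most abundant of these per length were Cadm4 (63.5 RPKM, log2 fold change -0.05) and Cadm3 (59.7 RPKM, log2 fold change 0.10).

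Spock1 stood apart from the other members. Its levels were 236, 248, 229 and 234 CPM in hpCTL replicates 1 to 4 and 250, 226, 274 and 258 CPM in hp708 replicates 1 to 4, so that the lowest library of all was hp708 replicate 2 and hp708 replicate 1 lay above every control. It was the best counted, with 5203 to 6909 reads per library, and the least variable, with a 1.21-fold ratio of highest to lowest. The means were 236.4 ± 8.0 CPM (SD, n = 4) and 252 ± 19.9 CPM (SD, n = 4), with a log2 fold change of 0.11 (SE 0.05, unadjusted p = 0.0629, adjusted p = 0.677 in edgeR; exact permutation p = 0.2), and it was the only 1 of the 6 genes to miss the unadjusted threshold. Among 7 relatives of the SPARC and testican family, matrix proteins with a shared calcium-binding fold, 0 reached an unadjusted p below 0.05 and the median was -0.03. At that p, 1 of 7 was higher and 2 of 7 lower without hp708 replicate 1, against 12.2% of all genes in either direction. The most abundant were Sparcl1 (197 RPKM, log2 fold change -0.05) and Spock2 (137.7 RPKM, log2 fold change -0.03).

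Homer3 was at 69.4, 55.8, 53.7 and 48.5 CPM in hpCTL replicates 1 to 4 and at 60.5, 57.8, 73.6 and 95.0 CPM in hp708 replicates 1 to 4. All 4 hp708 libraries lay above hpCTL replicates 2, 3 and 4, and hpCTL replicate 1 lay within the hp708 range. The means were 56.8 ± 8.9 CPM (SD, n = 4) and 71.7 ± 17.0 CPM (SD, n = 4), with a log2 fold change of 0.33 (SE 0.11, edgeR adjusted p = 0.573; exact permutation p = 0.143). Homer3 shares 1153 of its exon bases (22.9%) with Ddx49, an RNA helicase gene on the opposite strand, and the strand setting of the counting is not given in the sources used here, so reads of the overlap may be shared. Ddx49 lay at 23.0 to 31.0 CPM in the 8 libraries, with a log2 fold change of 0.00 (SE 0.08).

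With all 8 libraries and 3 surrogate variables, the partners of Homer3 were the only family list with more than 1 gene higher at an unadjusted p below 0.05. All 12 genes of the Homer, group I metabotropic glutamate receptor, Shank and DLGAP scaffold list had a positive log2 fold change, with a median of 0.12, and 5 of 12 reached an unadjusted p below 0.05, where 2.82% of all genes were higher at that p, and none an FDR of 0.05. Dlgap2, which links PSD-95 to Shank proteins, had the largest fold change of the list (0.37, unadjusted p = 0.00121, adjusted p = 0.329 in edgeR). It was at 28.2, 41.5, 40.0 and 41.1 CPM in hpCTL replicates 1 to 4 and at 48.2, 33.3, 54.0 and 63.5 CPM in hp708 replicates 1 to 4. Those of the master scaffolds Shank1, Shank2 and Shank3 were 0.22, 0.18 and 0.15 (unadjusted p = 0.013, 0.0271 and 0.0214 in edgeR), and that of Dlg4, which encodes PSD-95, was 0.12 (unadjusted p = 0.0439 in edgeR). Shank1 was at 310.6 CPM in hpCTL replicate 1 and at 459 to 535 CPM in the other controls, the reverse of Homer3 in that library. Without surrogate variables 0 of 12 reached an unadjusted p below 0.05 (1.81% of all genes). Without hpCTL replicate 1 (9.67% of all genes), and likewise without hp708 replicate 1 (12.2%), 1 of 12 did. The median was then 0.07 in both cases, with 11 and 10 of 12 genes higher.

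**Figure D1:**
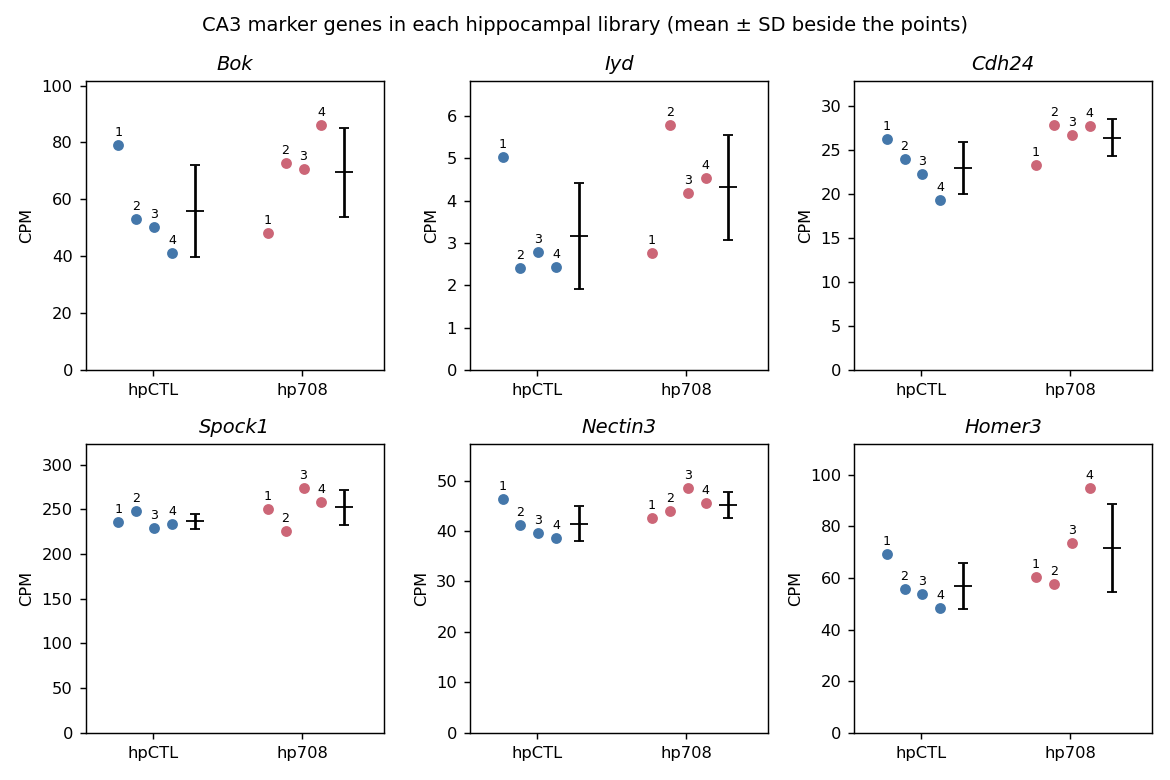
Level of each of the 6 CA3 marker genes in CPM (vertical axis from 0) in each library, numbered by replicate, with the mean ± SD of the 4 libraries of each group beside the points. For Bok, hpCTL replicate 1 (79.0 CPM) sits with the high libraries and hp708 replicate 1 (48.3 CPM) with the low ones, and the groups overlap in all 6 panels.

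Leaving out either library numbered 1 raised the median difference. Without hp708 replicate 1, 5 of 6 genes had an unadjusted p below 0.05, against 12.2% of all genes, the median log2 fold change of the members was 0.40, and the lowest adjusted p in edgeR was 0.0855, for Bok. The log2 fold changes were then 0.64 for Bok, 0.90 for Iyd, 0.30 for Cdh24, 0.18 for Nectin3 and 0.49 for Homer3, and that of Spock1 was 0.07. Without hpCTL replicate 1, 5 of 6 genes had an unadjusted p below 0.05, against 9.67% of all genes, with a median of 0.30 and a lowest adjusted p of 0.234 in edgeR. Spock1 was the gene that did not pass in either case. The count was 0 of 6 without hpCTL replicate 2 (7.04% of all genes) and without hpCTL replicate 3 (2.98%). It was 3 of 6 without hpCTL replicate 4 (6.09% of all genes) and without hp708 replicate 2 (12%), 3 (8.02%) or 4 (8.46%).

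**Figure D2:**
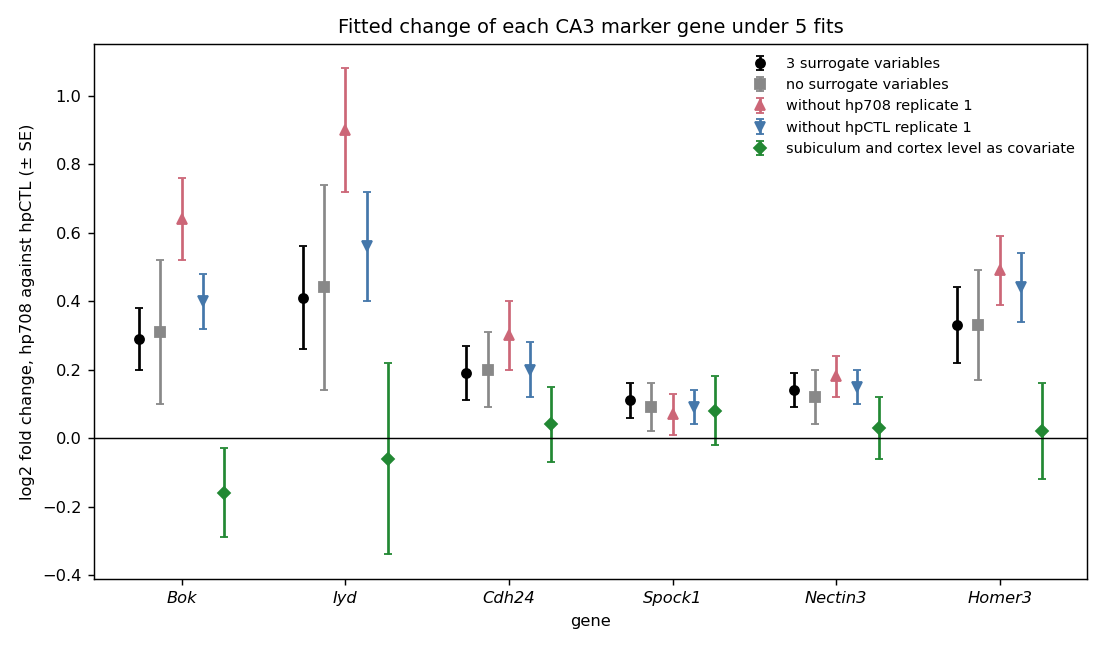
Fitted log2 fold change of hp708 against hpCTL (± SE, vertical axis) for the 6 genes in edgeR with 3 surrogate variables, with none, without either of the libraries numbered 1, and with the mean level of a subiculum and cortex gene list as the covariate. Bok reads 0.29 with surrogate variables, 0.64 without hp708 replicate 1 and -0.16 with the covariate, and Spock1 stays between 0.07 and 0.11 in all of them.

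The levels of the 6 genes were then compared with each other over the libraries. After each gene was standardised over the 8 libraries, the mean of the 6 genes was 0.56, -0.45, -0.82 and -1.28 SDs in hpCTL replicates 1 to 4 and -0.32, 0.30, 0.95 and 1.07 SDs in hp708 replicates 1 to 4. Of the 15 pairs of genes, all 15 had a positive correlation of log2 CPM and 7 passed a Benjamini-Hochberg (BH) adjusted exact permutation p of 0.05 by Pearson's r, 0 by Spearman's rho, and 0 by r after the libraries farthest from the median were left out. Of these 7 pairs, 5 include Bok or Iyd. Bok and Iyd fall into 2 clusters of 4 libraries each that cross the groups, so no pooled r is given for their pairs, and clusters of 4 libraries were taken as too small for a test within them. Their higher cluster, hpCTL replicate 1 and hp708 replicates 2 to 4, also held the 4 highest libraries of Cdh24 and of Nectin3. For Cdh24 these lay at 26.2 to 27.8 CPM and the others at 19.3 to 24.0 CPM. The r of Cdh24 and Nectin3 therefore holds that split too. Of the other pairs, Cdh24 and Nectin3 had r = 0.86 (exact permutation p = 0.00593, adjusted over 15 pairs 0.0293) and rho = 0.76 (exact p = 0.0368, adjusted 0.0789), and without hpCTL replicates 3 and 4 r was 0.66 (exact p = 0.169). Nectin3 and Homer3 had r = 0.80 (exact permutation p = 0.0154, adjusted 0.033) and rho = 0.90 (exact p = 0.00456, adjusted 0.0684), and without hpCTL replicate 4 and hp708 replicate 3 r was 0.74 (exact p = 0.075). With 6 libraries left, neither relation passed. With the group means removed, r was 0.79 for Cdh24 and Nectin3, 0.70 for Nectin3 and Homer3 and 0.05 for Cdh24 and Spock1.

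As a description of the same 8 libraries, with no test and with the clusters of Bok and Iyd in it, each gene was set against the mean pattern of the other 5. Nectin3 had the highest r over the 8 libraries (0.93, rank 7 of 15484 genes at 1 CPM or more), then Bok (0.91, rank 11), Cdh24 (0.89, rank 29), Homer3 (0.85, rank 49) and Iyd (0.72, rank 318). Spock1 was the least like the others (0.41, rank 2516). The genes outside the set with the highest r to the mean pattern of the 6 were Slc2a6, a glucose transporter of the lysosome (0.953), Mettl6, a tRNA methyltransferase (0.951), Cpne4, a calcium-dependent phospholipid-binding copine (0.946), Timm10b, a chaperone of mitochondrial import (0.944), and Slc25a47, a mitochondrial carrier (0.936). Of these, Cpne4 had a log2 fold change of 0.14 (edgeR adjusted p = 0.595), with 114.0, 96.6, 95.7 and 88.5 CPM in hpCTL replicates 1 to 4 and 93.6, 104.7, 122 and 114 CPM in hp708 replicates 1 to 4.

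Other genes known for CA3 were examined beside the 6. Of 8 such genes, all tested, 5 had a positive and 3 a negative log2 fold change, 0 reached an unadjusted p below 0.05, and the median was 0.01. Grik4, which encodes a kainate receptor subunit of mossy fibre synapses, had 73.0, 70.7, 68.9 and 66.9 CPM in hpCTL replicates 1 to 4 and 74.7, 55.3, 77.1 and 84.5 CPM in hp708 replicates 1 to 4 (log2 fold change 0.09, unadjusted p = 0.225 in edgeR). The log2 fold change was 0.01 for Socs2, a suppressor of cytokine signalling, 0.02 for the neuronal RNA-binding protein gene Elavl2, -0.01 for the neuropeptide Y receptor gene Npy2r, -0.01 for the protease-like Prss35, -0.16 for the zinc finger gene Plagl1, 0.26 for Coch, which encodes cochlin, and 0.04 for the axon guidance ligand Slit2. Their correlations with the mean pattern of the 6 genes ran from -0.37 (Slit2) to 0.40 (Grik4), and that of Grik4 was close to the 0.41 of Spock1 with the other members. In hp708 replicate 4, where the mean of the 6 genes was highest, Plagl1 was at 16.1 CPM against 32.8 to 44.0 CPM in the other 7 libraries. Without hp708 replicate 1, 2 of the 8 genes were higher and 6 lower, 2 of them at an unadjusted p below 0.05 (12.2% of all genes), with a median of -0.10. The difference between both lists in log2 fold change was not tested.

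**Figure D3:**
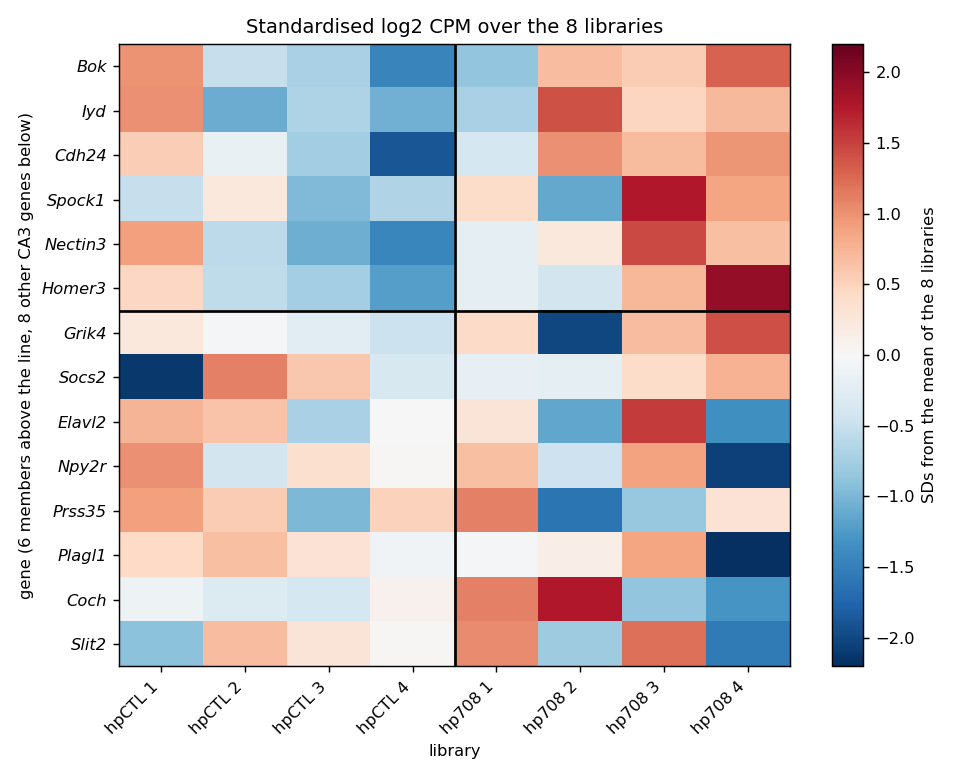
Log2 CPM of each gene in each library, as SDs from its mean over the 8 libraries (colour scale), for the 6 marker genes above the line and 8 other CA3 genes below it, with hpCTL left and hp708 right of the vertical line. Bok is at 0.98 in hpCTL replicate 1, where Spock1 is at -0.50, and the correlations of the genes below the line with the mean of the 6 run from -0.37 to 0.40.

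Markers of neighbouring regions were followed in the same libraries. A list of 8 genes of the subiculum and cortex, which border the hippocampus in a dissection, had a mean log2 CPM of 4.54, 4.99, 4.79 and 5.08 in hpCTL replicates 1 to 4 and of 4.94, 4.39, 4.27 and 4.03 in hp708 replicates 1 to 4. The 4 libraries in which this list was lowest, hpCTL replicate 1 and hp708 replicates 2, 3 and 4, were the same 4 in which the mean of the 6 CA3 genes was highest. Of this list, 3 of 8 genes were lower at an unadjusted p below 0.05 in edgeR (4.87% of all genes), with a median log2 fold change of -0.16. Without hpCTL replicate 1, 7 of 8 were lower at that p (median -0.27, 9.67% of all genes in either direction), and without hp708 replicate 1 also 7 of 8 (median -0.44, 12.2%). Without surrogate variables 1 of 8 was (1.81%), and the exact permutation test of the list's mean log2 CPM gave p = 0.114 (0.735 after adjustment over all lists tested). Its summed level was 258 to 383 CPM in hpCTL and 239 to 350 CPM in hp708. Tshz2, a zinc finger gene of this list, was at 22.9, 58.8, 36.5 and 54.5 CPM in hpCTL replicates 1 to 4 and at 53.8, 16.2, 16.8 and 16.1 CPM in hp708 replicates 1 to 4, so that it split the libraries as Bok did, in the opposite direction.

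CA2 genes had a mean log2 CPM of 4.22, 3.99, 3.64 and 3.80 in hpCTL replicates 1 to 4 and of 3.78, 4.37, 4.04 and 4.24 in hp708 replicates 1 to 4, with the same 4 libraries highest. CA1 genes had 6.26, 6.11, 6.11 and 6.16 in hpCTL and 6.25, 5.90, 6.00 and 5.87 in hp708, and were lowest in hp708 replicates 2, 3 and 4. The list of 8 dentate granule cell genes, at 5.22, 5.22, 5.29 and 4.90 in hpCTL and 4.86, 5.31, 5.80 and 5.14 in hp708, was highest in hp708 replicate 3. Of these lists, 1 of 8 CA2 genes was higher, 2 of 9 CA1 genes were lower and 1 of 8 dentate genes was higher at an unadjusted p below 0.05, where 2.82% of all genes were higher and 4.87% lower. Without hp708 replicate 1, where 12.2% of all genes passed, 4 of 8 CA2 genes were higher (median 0.30), 5 of 9 CA1 genes were lower and 1 of 9 higher (median -0.22), and 4 of 8 dentate genes were higher and 1 of 8 lower (median 0.30). Without hpCTL replicate 1, where 9.67% of all genes passed, 2 of 8 CA2 genes were higher, 2 of 9 CA1 genes were lower and 1 of 9 higher, and 1 of 8 dentate genes was higher and 1 of 8 lower. Without surrogate variables, where 1.81% of all genes passed, 1 of 8 CA2 genes was higher, 1 of 9 CA1 genes was lower, and 0 of 8 dentate genes passed. The summed level of choroid plexus genes, which lie on the hippocampal surface, spread from 52.9 to 2068 CPM in hpCTL and from 106.0 to 4410 CPM in hp708.

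With the mean level of the subiculum and cortex list as a covariate in place of the surrogate variables, the 6 genes had a median log2 fold change of 0.02, and 0 of 6 reached an unadjusted p below 0.05 (3.08% of all genes). The log2 fold change was then -0.16 for Bok (SE 0.13) and -0.06 for Iyd (SE 0.28), against 0.31 and 0.44 in the same fit without the covariate. It was 0.04 for Cdh24, 0.03 for Nectin3 and 0.02 for Homer3, and Spock1 kept 0.08 (SE 0.10) against 0.09. The covariate itself differed between the groups by -0.44 in mean log2 CPM, so this fit cannot tell the 2 apart. The other 8 CA3 genes had a median of -0.01 in this fit, and the 12 Homer scaffold genes had a median of 0.13 with 11 higher. Other lists shifted too. The choroid plexus list had a median of 3.43 with 7 of 7 genes at an unadjusted p below 0.05, against 0.78 and 0 of 7 in the same fit without the covariate. The median of the CA2 list was -0.08 against 0.15, and that of the dentate list -0.13 against 0.22.

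**Figure D4:**
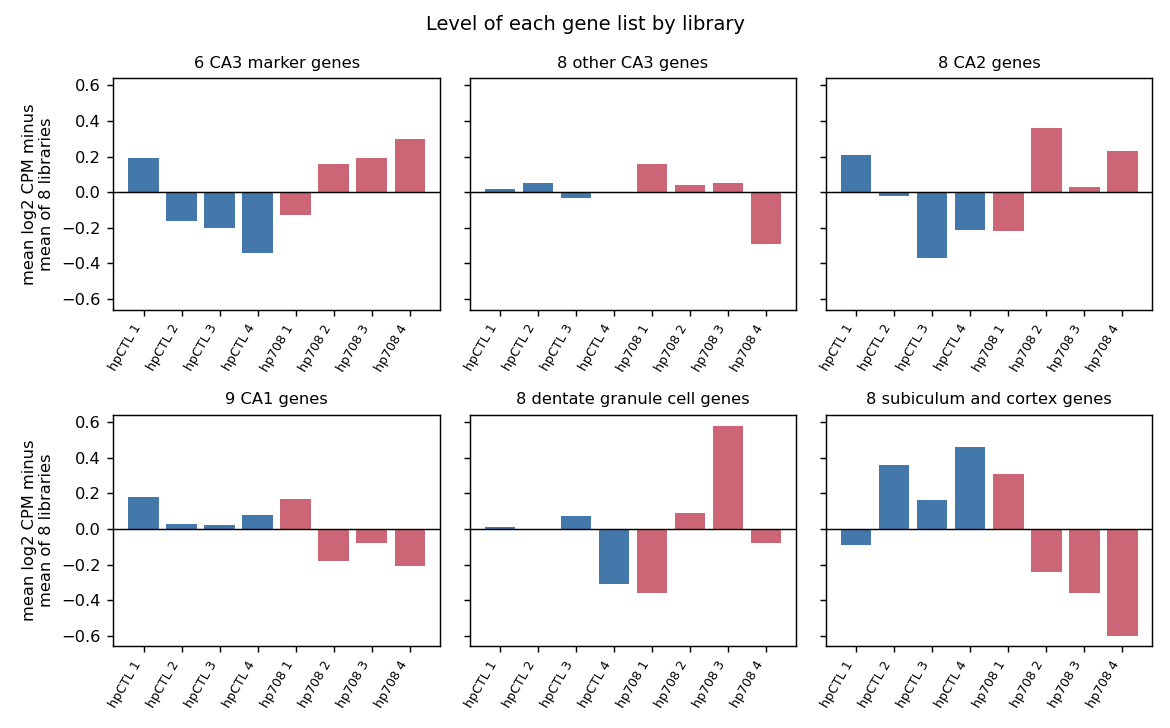
Mean log2 CPM of 6 gene lists in each library, as the difference from the list's mean over the 8 libraries (vertical axis), with hpCTL in blue and hp708 in red. The 6 CA3 marker genes run from -0.34 in hpCTL replicate 4 to 0.30 in hp708 replicate 4, and the subiculum and cortex list from 0.46 to -0.60 in the same libraries.

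Set beside the seed matches printed above, the 3 genes with a match in the 3′UTR, Spock1, Nectin3 and Cdh24, had log2 fold changes of 0.11, 0.14 and 0.19, and the 3 without, Bok, Homer3 and Iyd, had 0.29, 0.33 and 0.41. None of the 3 genes with a match was lower in hp708. Over all tested genes with an annotated 3′UTR the median log2 fold change was 0.001 with a match and -0.015 without, and genes with a match had longer 3′UTRs, with a median of 2932 against 1539 bases. The 3 genes with a match were also those that varied least between libraries, with highest-to-lowest ratios of 1.21, 1.26 and 1.44 against 1.96, 2.09 and 2.40. With 3 genes on each side, the difference was not tested. Which 3′UTR forms are present in the hippocampus was not examined, and the match in Nectin3 lies 6297 bases into its longest.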

How the data were processed

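PolyA RNA of whole hippocampi was sequenced from 8 male mice (4 hpCTL, 4 hp708). Per the labels and methods, the authors aligned reads with STAR 2.7.8a to GRCm39 and counted them per gene with featureCounts 1.6.4, and deposited raw counts. Settings for strand and multimapping reads are not given in the sources used here, and 1018 identifiers carry no gene name. From these counts, genes were kept with filterByExpr (17252 genes), normalised by TMM (factors 0.985 to 1.018), and tested with edgeR 4.0.16 (R 4.3.3) quasi-likelihood with 3 surrogate variables from sva 3.50.0, where the study's figure legend names the quasi-likelihood model and its methods the likelihood ratio test, with Benjamini-Hochberg adjustment over all genes tested. CPM used the TMM library sizes, log2 CPM a prior count of 2, and RPKM the union of exons in GENCODE. This GENCODE release, also used for the 3′UTRs, is not the one with which the authors counted reads. Single genes were compared by exact permutation over all 70 assignments. Exact permutation p-values measure the spread between these mice. Those of the main edgeR fit measure only the spread left after 3 surrogate variables estimated from the same 8 libraries. For Bok the SE was 0.09 with surrogate variables and 0.21 without.

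The 6 genes and all lists were chosen with earlier results of these data known. Named genes were the members, the other CA3 genes, in each family list those at an unadjusted p below 0.05 or else the most abundant 2, the 5 nearest patterns, and Tshz2. Genes were placed with the GRCm39 annotation, while the microRNA sequence came from a RefSeq table of GRCm38.p6. Alternatives were the number of surrogate variables, the likelihood ratio test, DESeq2 1.42.0, normalisation, filters, the replicate block and leaving out each library. The replicate numbers did not pair the libraries.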

Additional observations from a re-analysis of the deposited data

Results flagged for a closer look

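In groups of 4 libraries, a library was singled out when its gap to the nearest of the others exceeded the 95% critical value of Dixon's ratio. This held for 4 of 68 groups examined, where chance gives about 3.4. Iyd in hpCTL replicate 1 was at 5.03 CPM, with the other controls at 2.41 to 2.79 CPM. The mossy cell list in hpCTL replicate 3 had a mean log2 CPM of 2.87, with the others at 2.56 to 2.59. The interneuron list in hpCTL replicate 1 had 5.98, with the others at 5.73 to 5.77, and the cadherin and catenin list in the same library had 4.85, with the others at 4.97 to 4.99. Of these 4 values, 3 came from hpCTL replicate 1.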

How the results depend on the processing

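No member passed an FDR of 0.05 under any of the 11 alternatives or 16 fits that left out 1 library. The count at an unadjusted p below 0.05 was 5 of 6, where 7.7% of all genes passed. It is given here with the share of all genes in brackets. The count became 0 with no surrogate variables (1.81%), 0 with 1 surrogate variable (3.44%) and 1 with 2 surrogate variables (4.1%). It was 2 when the likelihood ratio replaced the quasi-likelihood test (6.01%), 2 with DESeq2 (5.02%) and 2 with no filter (5.87%). For genes whose libraries all had 10 or more counts it was 3 (5.72%). The replicate block with no surrogate variables gave 0 (1.58%), and the subiculum and cortex covariate gave 0 (3.08%). Leaving out 1 library gave 0 to 5. It gave 5 without hpCTL replicate 1 (9.67%) or hp708 replicate 1 (12.2%), and 0 without hpCTL replicate 2 (7.04%) or 3 (2.98%). The count was 3 without hpCTL replicate 4 (6.09%) or hp708 replicate 2 (12%), 3 (8.02%) or 4 (8.46%). With no surrogate variables it gave 5 without hpCTL replicate 1 (1.99%), 3 without hp708 replicate 1 (3.42%) and 1 without hp708 replicate 2 (3.21%). In the remaining such fits the count was 0 (1.37% to 2.07%). The fits with 1 or 2 surrogate variables, with library sizes only and with the covariate were chosen after seeing the data. The direction of the 6 genes was the same in 160 of 162 values. These values are refits of the same libraries and are not independent. The exceptions were Bok (-0.16) and Iyd (-0.06) with the covariate, which made 2 of 6 lower and gave a median of 0.02. Groups that did not overlap numbered 0 to 2 when 1 library was left out: 2 without hpCTL replicate 1, and 1 without hp708 replicate 1 (Cdh24) or 2 (Spock1), where 2.9% to 6.17% of all genes did not overlap with 1 library left out. The 7 pairs of genes at an adjusted p below 0.05 became 0 without the 2 farthest libraries. Same-numbered libraries deviated independently (r from -0.04 to 0.02), so the replicate block only names libraries. Over all genes, the number at an FDR of 0.05 was 1, against 127 with the likelihood ratio test, 96 with DESeq2, 12 with no filter and 56 without hp708 replicate 1. Iyd, at 55 to 141 counts, is the gene most limited by depth.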

Other observations

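Among lists of other cell types in the same libraries, all 6 microglial genes had a lower fitted level in hp708, 4 of 6 at an unadjusted p below 0.05 in edgeR, with a median log2 fold change of -0.25, where 4.87% of all genes were lower at that p. Without surrogate variables 0 of 6 reached it, and the median was -0.10. Without hp708 replicate 1, 5 of 6 were higher, 0 of 6 reached that p, and the median was 0.05. The summed level of these genes was 457 to 636 CPM in hpCTL and 388 to 674 CPM in hp708. Of 7 oligodendrocyte genes 6 were higher and 0 reached an unadjusted p below 0.05 (median 0.04). Without surrogate variables 7 of 7 were higher and 0 reached it (median 0.18), without hpCTL replicate 1 all 7 were higher and 3 reached it (median 0.16, 9.67% of all genes), and without hp708 replicate 1 all 7 were higher and all 7 reached it (median 0.39, 12.2% of all genes). Of 7 astrocyte genes 0 reached it (median 0.02), of 8 interneuron genes 2 were lower at that p (median -0.06), and of 5 mossy cell genes 2 were lower (median -0.20). In the fit that left out hp708 replicate 1, 2 of 7 astrocyte genes were higher, 1 of 8 interneuron genes was higher and 3 of 8 lower, and 0 of 5 mossy cell genes passed (median -0.31). In the fit that left out hpCTL replicate 1, 2 of 5 mossy cell genes were lower at that p (median -0.53), 3 of 6 microglial genes were lower (median -0.18), 2 of 7 astrocyte genes were higher (median 0.03), and 1 of 8 interneuron genes was higher and 2 of 8 lower (median -0.01).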
